A study of Mus musculus with 24 samples.

Results

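Liver of calorie restricted (CR) mice was set against liver of mice fed ad libitum (AL) at zeitgeber time 18 h (ZT18, hours after lights on), the middle of the dark phase. The samples were chosen by their labelled diet and hour: 4 of the 24 libraries of the series, with 2 CR and 2 AL libraries, and every gene was examined. All mice were C57BL/6 and 5 months old. The CR mice had received 30% fewer calories for 3 months, from 2 months of age, and the AL mice ate freely over the same months. The hour at which CR mice were fed is not given in the sources used here, so the time since their last meal is unknown. Each library holds poly(A) RNA recovered with polysomes, the strings of ribosomes that translate a messenger RNA. Total RNA was not analysed here, so more transcript and more ribosome loading of the same transcript cannot be told apart. The labels do not say that the libraries of a group come from separate animals, so the p-values reflect variation among the libraries sequenced, part of which may be technical.

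Mice eat mostly at night, and the liver then takes up nutrients, makes fat and glycogen and shuts down glucose export. A restricted mouse usually eats its ration quickly and fasts until the next one. Many liver transcripts also differ between the sexes. In rodents the male pattern needs the pulsed release of growth hormone, which acts through the transcription factor STAT5, and a steadier hormone level gives the female pattern, in which the repressor CUX2 is made. The major urinary proteins (Mups), pheromone carriers made by male liver, are the best known male-biased products, and several cytochromes P450 of the Cyp2b family are female-biased.

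Counted reads were 36.0 and 60.8 M (M, mega) in the CR libraries and 25.7 and 36.4 M in the AL libraries of ZT18, within the 13.8 to 60.8 M of all 24. Features that collect ribosomal RNA took 26.5% and 1.90% of the reads in CR replicates 1 and 2, and 34.1% and 7.09% in AL replicates 1 and 2, so both diets had a library of high and one of low share. The hepatocyte markers, among them albumin, were high in all 4 libraries: Alb had 45146 and 38685 counts per 1000000 (CPM) in CR against 31507 and 41208 CPM in AL. Spearman's correlation across genes, which are not independent replicates, was 0.964 between the CR libraries, 0.956 between the AL libraries and 0.939 to 0.954 between diets. Among genes averaging at least 10 CPM in a diet, the median difference in log2 CPM was 0.28 between the CR libraries and 0.47 between the AL libraries.

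The ZT18 libraries have 3 traits that bear on the results. Both CR libraries held transcripts of striated muscle. CR replicate 2 lay between CR replicate 1 and the AL libraries for male-biased genes. The AL libraries differed from each other, with a correlation like that of the AL libraries of ZT14 (0.958) and ZT22 (0.955). Most calls were lost when AL replicate 1, AL replicate 2 or CR replicate 1 was left out. CPM values below carry TMM scaling (trimmed mean of M-values), and fold changes are log2, CR over AL, with their standard error (SE).

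Of 15490 genes tested, 87 were called between CR and AL at ZT18 at an adjusted p under 0.05 in a quasi-likelihood test of edgeR (Benjamini-Hochberg), which is 0.562% of the genes. The 71 genes higher in CR were 0.458% of those tested and the 16 lower genes were 0.103%. On the same 15490 genes the tool DESeq2 called 147 higher and 89 lower, and limma-trend 115 higher and 22 lower. List counts given below for these 2 tools are to be read beside these larger totals. Without a factor for library composition, which moves the median of all genes to 0.17, 66 genes were called higher and 4 lower. All 87 differed at least 2-fold, and the median over all genes was -0.06 on the log2 scale. At an unadjusted p under 0.05, 758 genes were higher (4.89%) and 876 lower (5.66%). Of the 87 called genes, 27 were striated muscle genes, 11 were female-biased and 3 were male-biased. The other 46 belonged to none of these lists, 33 of them higher and 13 lower in CR. Among these 13 were Mup9, Mup15 and Mup18, which are not in the male-biased list. Leaving out AL replicate 2 left 1 called gene (Fam84b). Without AL replicate 1 there were 14 higher and 18 lower calls, 23 of them among the 87, and without CR replicate 1 there were 31 higher and 2 lower, 29 of them among the 87. Without CR replicate 2 the 43 higher and 47 lower calls shared 47 genes with the 87, so more genes were lower than higher without AL replicate 1 or CR replicate 2. In these fits the remaining library of its group is assumed to vary like the other groups.

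**Figure D1:**
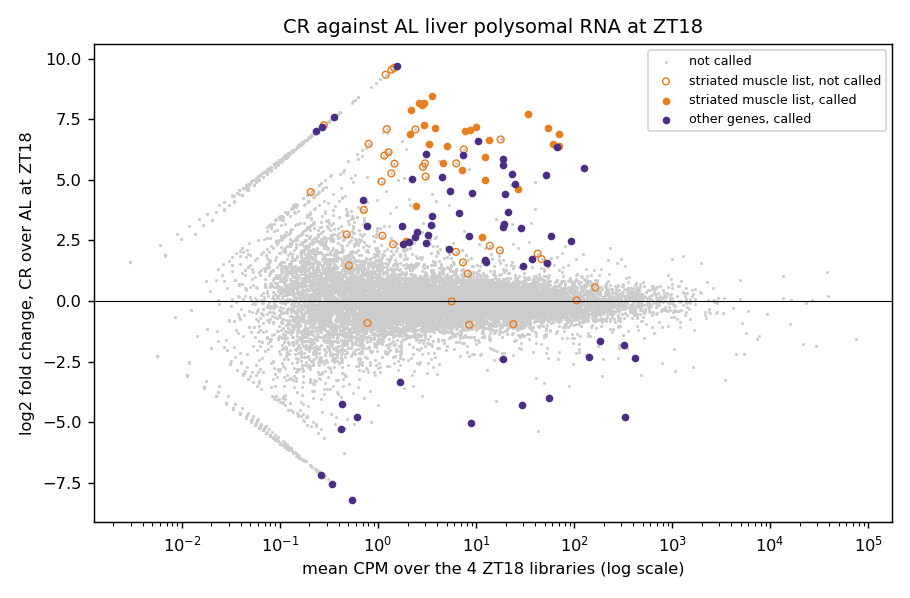
Log2 fold change of each tested gene, CR over AL at ZT18, against its mean CPM over the 4 libraries (log scale). Filled points are the 87 called genes, and orange marks striated muscle genes, which form the upper cloud together with called genes of other kinds in purple. The straight diagonal edges are genes with no counts in one diet.

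Fam84b was picked from all genes for its call without AL replicate 2, the AL library in which it was higher. Leaving that library out widens its gap between the diets, so the call there does not rank it above other genes. It had 18.9 and 16.3 CPM in CR against 0.333 and 1.19 CPM in AL, with no overlap, a log2 fold change of 4.45 ± 0.61 (SE, n = 2 each) and an adjusted p of 0.00253 in edgeR's test. In GRCm38 the gene lies on the minus strand at chr15:60818994-60853778 and overlaps the transcript 9930014A18Rik, and reads of overlapping genes cannot be told apart in libraries without strand. It was also higher in CR at each of the other 5 hours, by 1.28 to 2.87 on the log2 scale, and the difference of ZT18 from these hours did not pass (2.40 ± 0.62, adjusted p = 0.351).

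Among the genes of largest change were those of the contractile apparatus of striated muscle. The list of 73 muscle genes was written after this was seen, so its counts are a description. Of 64 tested, 27 were called, all higher in CR (beside 0.458% of all genes), and both CR libraries were above both AL libraries for 59 (beside 17.0%). The median log2 fold change was 5.68. Without AL replicate 2 none of them was called, and without AL replicate 1, CR replicate 1 or CR replicate 2 there were 4, 14 and 10 calls.

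Thin-filament genes were among the muscle genes called. Acta1, skeletal alpha-actin, had 120 and 159 CPM in CR against 1.81 and 0.671 CPM in AL (6.87 ± 1.20, adjusted p = 0.0127). Tnni2 and Tnnt3, the fast troponins I and T, differed by 6.39 ± 0.96 (adjusted p = 0.00329) and 6.48 ± 1.23 (adjusted p = 0.0238). Tnni2 was counted at 100 and 175 CPM in CR and 2.23 and 1.12 CPM in AL. Both diets were thus far apart, and the 2 CR libraries were alike. Tcap, which caps titin at the Z-disc, had 46.9 and 89.3 CPM in CR against 0.618 and 0.112 CPM in AL (7.72 ± 1.06, adjusted p = 0.00318). Myoglobin (Mb), the oxygen store of muscle, had 82.8 and 130 CPM in CR against 1.38 and 0.269 CPM in AL (7.12 ± 1.34, adjusted p = 0.0190). Reads of Tnnt3 and Mb can include those of overlapping genes.

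Transcripts of fast and of slow or cardiac fibres were both present. Of the fast ones, Mylpf (regulatory light chain) had 40.9 and 62.6 CPM in CR against 2.23 and 1.99 CPM in AL, and Myl1 10.1 and 24.2 CPM in CR against 0.143 and 0.112 CPM in AL. The light chain of slow and ventricular muscle, Myl2, had 8.69 and 22.2 CPM in CR against 0.190 and 0.0671 CPM in AL. All of these were called. The heavy chain Myh4 of fast fibres, with 1.16 and 2.02 CPM in CR against 0 and 0.0224 CPM in AL, did not pass (adjusted p = 0.174). Energy genes of muscle moved with them: creatine kinase Ckm (5.68 ± 1.20, adjusted p = 0.0466), the fatty acid binding protein Fabp3 (7.18 ± 1.18, adjusted p = 0.00808) and the cytochrome oxidase subunit Cox8b. Cox8b, a form used in muscle and brown fat, had 31.0 and 17.6 CPM in CR against 0.238 and 0.515 CPM in AL (5.93 ± 0.95, adjusted p = 0.00511).

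The promoter of Cox8b is shown because its gene gave the largest difference of ZT18 from the other hours among the 4 genes that passed the test of that difference. It comes from RefSeq (GRCm38.p6, minus strand, chr7:140900397-140900696), runs 5′ to 3′ around the annotated start, and has in capitals both matches of CAGCTG, the E-box form bound by myogenic factors.
Cox8b: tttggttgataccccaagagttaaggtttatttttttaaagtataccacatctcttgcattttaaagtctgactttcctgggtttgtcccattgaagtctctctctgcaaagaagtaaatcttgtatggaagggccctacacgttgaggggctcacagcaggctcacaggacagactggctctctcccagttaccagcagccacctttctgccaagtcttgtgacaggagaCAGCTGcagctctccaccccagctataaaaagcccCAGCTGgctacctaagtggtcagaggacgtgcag
The matches start at positions -19 and 17 relative to the start site. CAGCTG reads the same on both strands. It was found in 16.3% of 32851 RefSeq windows of 300 bases, 1.90% held 2 or more, and of the 46 muscle genes with a window 22 held it. A match is a description of letters and not of binding.

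Across the series the muscle transcripts were not spread evenly. Of the 64 tested genes, 15 had a median of at least 1 CPM over the 12 AL libraries and are thus seen in liver as well. The other 49 summed to 767 and 1054 CPM in the CR libraries of ZT18, against 16.0 and 8.04 CPM in the AL libraries of ZT18. They reached 155 CPM in CR replicate 1 of ZT6 and 3.18 to 13.3 CPM in the remaining 19 libraries. Acta1, for example, had 21.8 CPM in CR replicate 1 of ZT6 and at most 0.912 CPM in those 19. Whether these transcripts were made in liver or came with other tissue was not tested, and in bulk RNA more cells of a type and more RNA per cell cannot be told apart.

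Some called genes outside the list are also used by muscle. Slc25a4, the ADP/ATP carrier of heart and muscle mitochondria, had 45.2 and 57.6 CPM in CR against 8.79 and 4.21 CPM in AL (2.99 ± 0.48, adjusted p = 0.00511). It too had a higher level in CR replicate 1 of ZT6 (15.6 CPM) than in the remaining 19 libraries (at most 6.79 CPM). Ldhb, the heart-type subunit of lactate dehydrogenase, had 13.2 and 15.9 CPM in CR against 1.71 and 2.73 CPM in AL (2.70 ± 0.49, adjusted p = 0.0118). Des, a filament gene already counted in the muscle list, is also a marker of stellate cells. It was the 1 called of 12 stellate and fibroblast markers (beside 0.458% of all genes higher). Fat markers did not move with both CR libraries: adiponectin (Adipoq) had 0 and 2.69 CPM in CR against 0.0475 and 0 CPM in AL, and the 3 of 5 adipocyte markers tested were not called. Their summed level was 1.22 and 17.0 CPM in CR against 3.85 and 2.39 CPM in AL. With the muscle genes removed before normalization, 43 genes were called, all of them among the 60 called genes outside the muscle list. They were 35 higher and 8 lower genes, beside 44 and 16 of the 60. The 11 female-biased genes stayed called, and 1 of the 3 male-biased genes did.

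**Figure D2:**
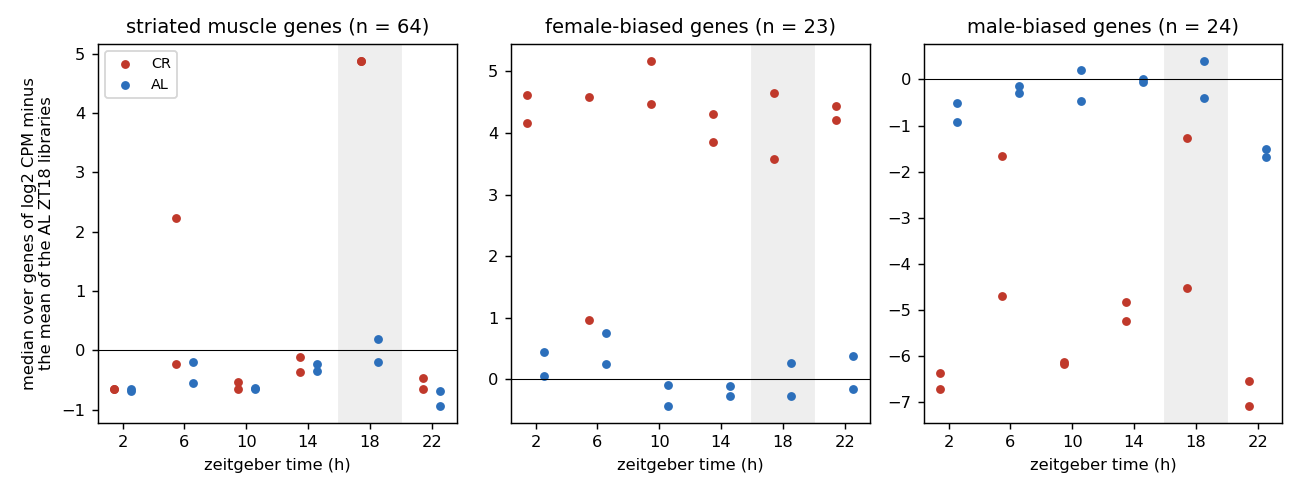
Median over the genes of 3 lists of log2 CPM minus the mean of the AL libraries of ZT18, in each of the 24 libraries by hour, with CR (red) left of AL (blue) and ZT18 shaded. Both CR libraries of ZT18 lie near 4.9 for muscle genes. For male-biased genes CR replicate 2 of ZT18 lies at -1.26, far above CR replicate 1 at -4.51.

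Female-biased genes were the next largest group of calls, with cytochromes P450, carriers and the regulator Cux2 among them. The list was drawn up with earlier results of these data known, so its direction is not independent evidence. Of 23 tested, 11 were called, all higher in CR (beside 0.458% of all genes), the median log2 fold change was 4.14, and both CR libraries were above both AL libraries for 21 (beside 17.0%). By library the members' median stood 4.65 and 3.57 above the AL mean on the log2 scale in CR replicates 1 and 2, against 0.27 and -0.27 in AL replicates 1 and 2. The calls numbered 4 without AL replicate 1, 0 without AL replicate 2, 6 without CR replicate 1 and 12 without CR replicate 2.

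Among regulators, Cux2, the female-biased repressor, had 4.04 and 8.24 CPM in CR against 0.0475 and 0.112 CPM in AL (6.06 ± 0.91, adjusted p = 0.00329). The prolactin receptor Prlr, which is outside the female-biased list, had 199 and 115 CPM in CR against 33.9 and 22.7 CPM in AL (2.47 ± 0.56, adjusted p = 0.0431). Both genes were separated between the diets in every library. They were the 2 called among 17 genes of the growth hormone and IGF axis (beside 0.458% of all genes higher), whose median was -0.18. The growth hormone receptor Ghr (161 and 145 CPM in CR, 168 and 379 CPM in AL) and Igf1 (665 and 772 CPM in CR, 700 and 616 CPM in AL) were not called. The EGF receptor gene Egfr, with 15.7 and 39.7 CPM in CR against 86.5 and 252 CPM in AL, was separated as well but did not pass (-2.61 ± 0.78, adjusted p = 0.174). Bcl6, a male-biased repressor, had 3.25 and 11.2 CPM in CR against 34.2 and 7.50 CPM in AL, and the diets overlapped.

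The enzymes came next. Cyp2b9 had 132 and 135 CPM in CR against 2.71 and 0.739 CPM in AL (6.34 ± 1.09, adjusted p = 0.00808), and its paralog Cyp2b13 had 51.0 and 22.2 CPM in CR against 1.05 and 0.313 CPM in AL (5.85 ± 1.26, adjusted p = 0.0332). The steroid hydroxylase Cyp17a1 had 23.7 and 45.4 CPM in CR against 3.09 and 4.57 CPM in AL (3.17 ± 0.58, adjusted p = 0.0127). No library of one diet reached the range of the other for these 3 genes. Acot3, a peroxisomal acyl-CoA thioesterase, differed by 5.24 ± 1.06 (adjusted p = 0.0266) and its neighbour Acot4 by 2.69 ± 0.52 (adjusted p = 0.0190). Cyp2c69 (4.85 ± 1.00, adjusted p = 0.0281) and Cyp2a22 (5.18 ± 1.16, adjusted p = 0.0431) also rose. Paralogs can share reads: 54.3% of the 50-base words of Cyp2c69, 27.3% of Cyp2b13, 20.2% of Cyp2a22, 19.1% of Acot3 and 11.2% of Cyp2b9 occur in transcripts of other genes.

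Membrane carriers and secreted proteins followed. Slco1a4, an organic anion uptake carrier, had 40.2 and 27.2 CPM in CR against 2.71 and 5.42 CPM in AL (3.03 ± 0.47, adjusted p = 0.00375). Abcd2, which imports fatty acyl-CoA into peroxisomes, had 17.4 and 7.55 CPM in CR against 1.19 and 0.828 CPM in AL (3.65 ± 0.62, adjusted p = 0.00808). Nipal1, related to magnesium transporters, had the smallest p of all genes, with 9.34 and 7.99 CPM in CR against 0.380 and 0.157 CPM in AL (5.12 ± 0.67, adjusted p = 0.00223). The plasma glycoprotein gene A1bg had 17.1 and 11.7 CPM in CR against 0.285 and 0.179 CPM in AL (6.01 ± 1.02, adjusted p = 0.00808). The 12 list members that were not called had log2 fold changes between 0.86 and 6.94, among them Hamp2 (4.92 ± 1.24, adjusted p = 0.0899).

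At every hour the median difference of the female-biased list was positive, 3.56 at ZT2, 3.43 at ZT6, 4.52 at ZT10, 5.22 at ZT14, 4.14 at ZT18 and 4.48 at ZT22. No member's difference at ZT18 passed against the mean of the other hours, and 2 of 23 had an unadjusted p under 0.05 (beside 5.42% of all genes). In CR replicate 2 of ZT6 the members' median stood at 0.97, against at most 0.75 in AL and at least 3.57 in the other CR libraries. Its members were uneven: Cyp2b9 had 2.86 CPM and Slco1a4 28.7 CPM, against at most 2.71 and 14.3 CPM in AL. The comparison hours thus contain a library of their own kind.

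Male-biased genes were lower, but unevenly. All 24 tested members had a negative log2 fold change, with a median of -2.12, and 22 were lower in both CR libraries than in both AL libraries (beside 20.1% of all genes). Only C9, Nudt7 and Mup7 were called (beside 0.103%). The values divided within CR: every one of the 24 genes was lower in CR replicate 1 than in CR replicate 2, and for 22 CR replicate 2 fell between CR replicate 1 and the lower AL library. The members' median was -4.51 in CR replicate 1 and -1.26 in CR replicate 2, against -0.39 and 0.39 in AL replicates 1 and 2. ZT6 held a similar pair on the same scale, with -4.70 in CR replicate 1 and -1.66 in CR replicate 2. Without CR replicate 2 there were 17 calls, without CR replicate 1 or AL replicate 2 there were 0, and without AL replicate 1 there were 3.

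Hsd3b5, a steroid reductase of male liver, had 4.79 and 72.6 CPM in CR against 122 and 221 CPM in AL (-2.15 ± 0.70, adjusted p = 0.231). The fatty acid hydroxylase Cyp4a12a had 4.85 and 95.8 CPM in CR against 174 and 175 CPM in AL (-1.79 ± 0.89, adjusted p = 0.491). The elongase Elovl3 had 5.39 and 87.7 CPM in CR against 232 and 200 CPM in AL (-2.21 ± 0.91, adjusted p = 0.376). In all 3 genes the CR libraries differed more from each other, on the log2 scale, than CR replicate 2 did from AL. Slco1a1, the male-biased uptake carrier, repeated the order with 6.50 and 78.0 CPM in CR against 153 and 209 CPM in AL. The selenium-binding protein gene Selenbp2 had 26.1 and 433 CPM in CR against 984 and 1714 CPM in AL. Reads of Cyp4a12a and Selenbp2 can be shared with paralogs (48.9% and 43.9% of their 50-base words).

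**Figure D3:**
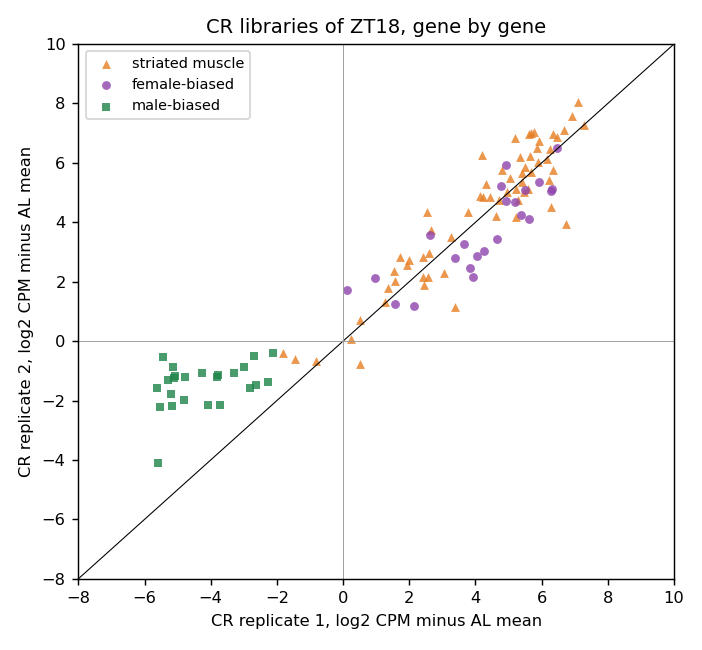
Log2 CPM minus the mean of the AL libraries of ZT18, in CR replicate 1 (horizontal) and CR replicate 2 (vertical), for the genes of 3 lists, with the line of equal values. The 24 male-biased genes (green squares) all lie above the line, while muscle genes (orange triangles) and female-biased genes (purple circles) lie on both sides of it.

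Pheromone carriers were among the largest decreases. Mup7 had 12.1 and 34.0 CPM in CR against 376 and 911 CPM in AL (-4.80 ± 0.99, adjusted p = 0.0281). Mup18 had 1.65 and 11.3 CPM in CR against 22.8 and 188 CPM in AL (-4.01 ± 0.90, adjusted p = 0.0431). Mup15 (-4.30 ± 0.86, adjusted p = 0.0266) and Mup9 (-5.03 ± 1.05, adjusted p = 0.0302) were lower as well. In each of these 4 genes both CR libraries lay below both AL libraries. Mup11, Mup12, Mup14, Mup17, Mup20 and Mup21 of the male-biased list were lower but not called in edgeR's test. Mup20, for example, had 253 and 3684 CPM in CR against 6603 and 11306 CPM in AL (-2.19 ± 0.86, adjusted p = 0.340). The copies are nearly identical, and 86.7% of the 50-base words of Mup7, 89.6% of Mup18, 100% of Mup15 and 79.1% of Mup9 occur in other genes, so how counts divide among them is uncertain.

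The promoters below are examples from called genes that were lower (Mup7 and Mup18) or higher (A1bg and Cyp2b9) in CR. They are RefSeq windows of GRCm38.p6: Mup7 (minus strand, chr4:60070426-60070725), Mup18 (minus strand, chr4:61674045-61674344), A1bg (minus strand, chr15:60921221-60921520) and Cyp2b9 (plus strand, chr7:26173159-26173458). Capitals mark ATTGAT, the core of sites bound by HNF6 and CUX2 (ATCAAT on the other strand), TTCNNNGAA, the palindrome of STAT5, and CAGCTG.
Mup7: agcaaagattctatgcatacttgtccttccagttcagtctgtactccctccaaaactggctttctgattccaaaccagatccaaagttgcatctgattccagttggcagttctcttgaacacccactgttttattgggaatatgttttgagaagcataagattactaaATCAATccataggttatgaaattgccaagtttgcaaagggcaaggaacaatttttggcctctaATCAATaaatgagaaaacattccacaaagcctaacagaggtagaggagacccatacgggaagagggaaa
Mup18: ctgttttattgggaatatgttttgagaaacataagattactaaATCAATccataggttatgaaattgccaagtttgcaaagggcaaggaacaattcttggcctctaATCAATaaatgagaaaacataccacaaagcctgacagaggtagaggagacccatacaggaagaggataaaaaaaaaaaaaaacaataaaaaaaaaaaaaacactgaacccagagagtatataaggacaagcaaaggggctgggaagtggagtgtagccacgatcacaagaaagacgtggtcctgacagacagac
A1bg: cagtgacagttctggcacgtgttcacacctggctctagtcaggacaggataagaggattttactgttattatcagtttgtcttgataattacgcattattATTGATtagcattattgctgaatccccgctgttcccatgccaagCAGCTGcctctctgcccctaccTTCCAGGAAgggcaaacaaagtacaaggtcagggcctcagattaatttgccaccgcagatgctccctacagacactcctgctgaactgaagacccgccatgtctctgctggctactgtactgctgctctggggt
Cyp2b9: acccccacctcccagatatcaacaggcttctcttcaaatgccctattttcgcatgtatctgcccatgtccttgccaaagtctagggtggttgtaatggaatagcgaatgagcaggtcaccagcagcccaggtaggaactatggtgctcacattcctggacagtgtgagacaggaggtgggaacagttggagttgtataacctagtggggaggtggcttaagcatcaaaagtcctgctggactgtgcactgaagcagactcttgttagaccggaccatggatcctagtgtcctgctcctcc
Mup7 and Mup18 held the ATTGAT core at 2 places, A1bg held 1 match of each motif, and the window of Cyp2b9 held none. The ATTGAT core was found in 7.54% of all windows, 0.694% of windows held 2 or more, and TTCNNNGAA was found in 8.30%. Of 17 male-biased genes with a window 6 held ATTGAT and 2 TTCNNNGAA, and of 17 female-biased genes 5 and 3 did. The stretch with both ATTGAT matches is nearly the same in Mup7 and Mup18. The male-biased list holds several Mup genes, so its windows are not independent. These motifs were picked after several had been looked at, and a match is not a site.

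Decreases outside the Mup family included genes of complement and of heme synthesis. C9, which forms the membrane pore of complement, had 99.5 and 188 CPM in CR against 358 and 655 CPM in AL (-1.82 ± 0.41, adjusted p = 0.0430), and C8b, of the same complex, had 24.2 and 70.9 CPM in CR against 165 and 309 CPM in AL (-2.32 ± 0.51, adjusted p = 0.0374). They were the 2 called by edgeR among 33 complement and coagulation genes (beside 0.103% of all genes lower), whose median was -0.26, and DESeq2 and limma-trend each called 3 lower. Nudt7, which degrades coenzyme A in peroxisomes, had 82.8 and 194 CPM in CR against 309 and 1100 CPM in AL (-2.35 ± 0.53, adjusted p = 0.0431). Ttc39c had 58.4 and 121 CPM in CR against 249 and 312 CPM in AL (-1.64 ± 0.37, adjusted p = 0.0430). In each of these 4 genes CR replicate 1 was the lowest library.

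Alas2, the heme synthesis enzyme of red cell precursors, had 4.98 and 7.13 CPM in CR against 26.0 and 37.7 CPM in AL (-2.39 ± 0.51, adjusted p = 0.0322). The other 5 erythroid markers were not called, and the summed level of all 6 was 2168 and 1147 CPM in CR against 931 and 2201 CPM in AL, with none at 0. The erythroid sum thus overlapped between the diets where Alas2 did not. Reads of Alas2 can include those of Apex2, which overlaps it.

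**Figure D4:**
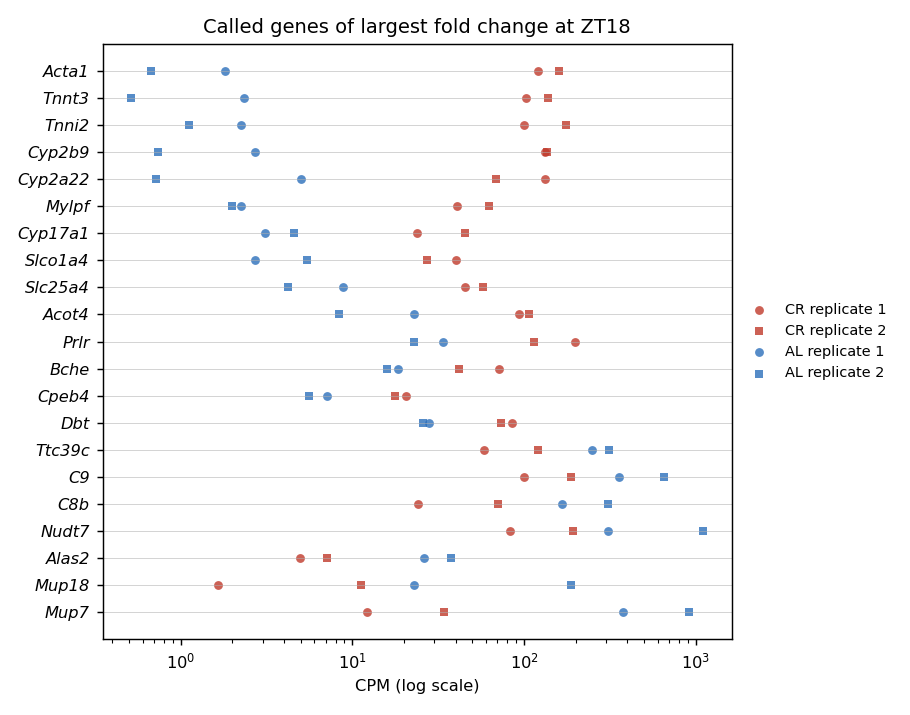
CPM (log scale) in each library of ZT18, for called genes whose geometric mean over the 4 libraries reached 10 CPM, with CR in red and AL in blue, replicate 1 as circles and replicate 2 as squares. Of the higher genes of largest change 14 are above, and the 7 lower genes are below. In every gene shown the diets do not overlap.

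Among the other increases, several genes act in nutrient use and cell signalling. Dbt, a subunit of the enzyme that commits branched-chain amino acids to breakdown, had 85.0 and 73.2 CPM in CR against 28.0 and 25.8 CPM in AL (1.55 ± 0.35, adjusted p = 0.0463). The leptin receptor Lepr had 18.6 and 2.09 CPM in CR against 0.333 and 0.515 CPM in AL (4.54 ± 0.78, adjusted p = 0.00808), so the CR libraries were themselves far apart. Slc16a5, of the monocarboxylate carrier family, had 31.1 and 44.0 CPM in CR against 2.71 and 0.895 CPM in AL (4.43 ± 0.64, adjusted p = 0.00318). Butyrylcholinesterase (Bche) rose by 1.73 ± 0.37 (adjusted p = 0.0322) and Cpeb4, which binds messenger RNA tails to control translation, by 1.60 ± 0.34 (adjusted p = 0.0320). Organic anion carriers of the family Slc22 also rose, Slc22a26 (5.62 ± 1.05, adjusted p = 0.0163) and Slc22a27 (6.61 ± 1.21, adjusted p = 0.0128), which shares 29.9% of its 50-base words with other genes. Sybu had 3.39 and 2.80 CPM in CR and no counts in either AL library.

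Stress genes gave single calls. Nqo1, the quinone reductase controlled by NRF2, had 8.88 and 8.25 CPM in CR against 1.76 and 2.13 CPM in AL (2.13 ± 0.43, adjusted p = 0.0266). It was the 1 called of 19 NRF2 and antioxidant genes (beside 0.458% of all genes higher), whose median was -0.16. Atf3, an early stress factor, had 2.74 and 3.52 CPM in CR against 0.190 and 0.515 CPM in AL (3.07 ± 0.65, adjusted p = 0.0320). It was the 1 called of 16 immediate early genes (beside 0.458%), whose median was 0.32. Of 23 cell cycle genes tested, Ccne1 (cyclin E1) and Birc5 (survivin) were called lower by edgeR (beside 0.103% of all genes) and none higher, with a median of -0.84. DESeq2 called 4 of the list lower and limma-trend 1. Both were at low counts: Ccne1 had 1 and 1 reads in CR against 14 and 43 in AL, and Birc5 1 and 4 reads in CR against 28 and 46 in AL.

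The molecular clock showed 1 call among 19 genes, higher in CR (beside 0.458% of all genes), with a median of 0.42. At an unadjusted p under 0.05 in edgeR's test 3 were higher (beside 4.89%) and 3 lower (beside 5.66%). Both CR libraries were above both AL libraries for 8 (beside 17.0%) and below them for 3 (beside 20.1%). Npas2, a partner of BMAL1 that can stand in for CLOCK, had 1.65 and 0.998 CPM in CR against 0.190 and 0 CPM in AL (4.15 ± 0.86, adjusted p = 0.0322). Its counts were 61 and 84 reads in CR against 4 and 0 reads in AL. Other activators were little apart: Arntl (BMAL1) had 6.26 and 7.08 CPM in CR against 5.28 and 6.20 CPM in AL, and Clock 30.4 and 23.9 CPM in CR against 18.7 and 16.8 CPM in AL (0.62 ± 0.33, adjusted p = 0.527).

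The repressors and output genes of the clock did not pass in edgeR's test either. Per2 had 13.7 and 7.18 CPM in CR against 4.56 and 7.09 CPM in AL (0.83 ± 0.51, adjusted p = 0.589), and Cry1 35.9 and 20.1 CPM in CR against 18.5 and 19.3 CPM in AL (0.57 ± 0.43, adjusted p = 0.694). The log2 fold changes of Per1, Per3, Cry2, Ciart, Bhlhe40 and Bhlhe41 lay between -0.26 and 1.59. Of the REV-ERB pair, Nr1d2 had 4.25 and 4.67 CPM in CR against 7.60 and 10.1 CPM in AL (-0.99 ± 0.39, adjusted p = 0.335), and Nr1d1 differed by -1.26 ± 0.67. Reads of Nr1d1 and Dbp can include those of Thra and Sphk2, which overlap them. The output factor Dbp had 0.298 and 0.463 CPM in CR against 2.47 and 3.20 CPM in AL (-2.85 ± 0.81, adjusted p = 0.140), the widest gap of the list after Npas2, and DESeq2 called it lower (adjusted p = 0.0169). Hlf (0.75 ± 0.29), Rora (1.03 ± 0.34), Tef and Nfil3 were not called.

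Genes of the night's nutrient handling were mostly not called by edgeR. Cyp7a1, the rate-limiting enzyme of bile acid synthesis, was just outside the threshold with 119 and 92.0 CPM in CR against 25.4 and 33.9 CPM in AL (1.83 ± 0.43, adjusted p = 0.0593), and passed with DESeq2 (adjusted p = 0.00334) and limma-trend (adjusted p = 0.0364). Over its alternatives the adjusted p of Cyp7a1 was 0.000835 to 0.317. Of the 14 genes of bile acid synthesis and transport edgeR called none (3 higher and 2 lower at an unadjusted p under 0.05), DESeq2 2 and limma-trend 1, all higher. The fatty acid synthase gene Fasn had 438 and 444 CPM in CR against 201 and 262 CPM in AL (0.93 ± 0.60, adjusted p = 0.615). For both genes the CR libraries lay above both AL libraries, as they did for 11 of 24 genes of fat synthesis and 13 of 25 of cholesterol synthesis (beside 17.0%). Their medians were 0.30 and 0.39. In edgeR's test no gene of either list was called, 2 and 3 were higher at an unadjusted p under 0.05 (beside 4.89%), and DESeq2 called 1 higher in each and limma-trend none.

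The fasting genes Pck1, Fgf21 and Igfbp1 did not pass in edgeR's test. Pck1, which limits glucose production, had 223 and 224 CPM in CR against 349 and 325 CPM in AL (-0.59 ± 0.56, adjusted p = 0.777). The fasting hormone Fgf21 had 0.0542 and 0.333 CPM in CR against 2.23 and 0.985 CPM in AL (-2.92 ± 1.05, adjusted p = 0.285), and Igfbp1 had 1.73 and 2.66 CPM in CR against 3.04 and 12.7 CPM in AL (-1.84 ± 0.95, adjusted p = 0.509). The 31 genes of fat oxidation and PPARα targets had a median of -0.28, with 14 above 0. Of these, edgeR (beside 0.458% of all genes higher) and limma-trend called Acot4 alone and DESeq2 called 2 genes higher. None of the 13 gluconeogenesis genes, 20 of glycolysis and glycogen, 33 of amino acid catabolism and 8 of the urea cycle was called by edgeR, and at an unadjusted p under 0.05 there were 1, 2, 4 and 1 higher (beside 4.89% of all genes) and 0, 1, 1 and 0 lower genes (beside 5.66%). DESeq2 called 1 gene of gluconeogenesis and 1 of amino acid catabolism, both higher, and limma-trend none. The medians of these lists were at most 0.32, and 9 of the 13 gluconeogenesis genes had a positive log2 fold change.

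The lists of ribosomal proteins, translation factors, the proteasome, the respiratory chain and the unfolded protein response gave no calls by edgeR, DESeq2 or limma-trend. The 79 cytosolic ribosomal protein genes had a median of 0.21, the 37 translation factors -0.10, the 31 proteasome genes -0.28 and the 56 nuclear genes of the respiratory chain -0.08. At an unadjusted p under 0.05 in edgeR's test, 0, 1, 2 and 0 of these genes differed, all lower. The 24 genes of the unfolded protein response had a median of -0.57, and 7 of them were lower at an unadjusted p under 0.05 (beside 5.66% of all genes). They differed strongly within AL, where the members' median was 0.43 in AL replicate 1 and -0.43 in AL replicate 2, against -0.63 and -0.30 in CR replicates 1 and 2. Of 15 heat shock and cold-inducible genes, chaperones among them, DESeq2 called 2 higher, edgeR none (2 higher at an unadjusted p under 0.05) and limma-trend none.

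Markers of other liver cells were read beside the muscle genes. None of 17 Kupffer cell genes was called by edgeR, 10 were lower at an unadjusted p under 0.05 (beside 5.66%), the median was -1.24, and 13 were lower in both CR libraries than in both AL libraries (beside 20.1%). Clec4f, the Kupffer cell lectin, had 24.3 and 30.7 CPM in CR against 47.1 and 97.0 CPM in AL (-1.39 ± 0.41, adjusted p = 0.167), and Vsig4 had 4.41 and 3.83 CPM in CR against 6.18 and 31.0 CPM in AL (-2.18 ± 0.67, adjusted p = 0.189). The summed level of the 17 was 195 and 235 CPM in CR against 326 and 668 CPM in AL, so AL replicate 2 stood above the other 3 libraries, and 1 marker was at 0 in AL replicate 1 and none elsewhere. DESeq2 called 1 of the 17 lower and limma-trend none. Of the 33 interferon and antigen presentation genes none was called, 10 were lower at an unadjusted p under 0.05, and the median was -0.41. DESeq2 called 2 of them lower (beside 89 of all 15490 genes) and limma-trend 1 (beside 22). The 12 endothelial and 5 cholangiocyte markers tested had medians of -0.22 and 0.36, with no calls by edgeR, 3 and 1 genes at an unadjusted p under 0.05, 1 call in each by DESeq2 and none by limma-trend.

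The AL libraries also differed in inducible genes. Cyp4a14, a PPARα target, had 528 and 404 CPM in CR against 272 and 6.33 CPM in AL, and Cyp4a10 had 452 and 521 CPM in CR against 474 and 10.5 CPM in AL. AL replicate 1 was thus nearer to the level of CR, and AL replicate 2 was far below it. Socs2, which damps growth hormone signalling, had 16.1 and 7.49 CPM in CR against 2.90 and 56.9 CPM in AL, and Tff3, a secreted trefoil peptide, had 1.22 and 2.80 CPM in CR against 3.71 and 164 CPM in AL. None of the 4 was called between the diets.

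Whether a diet difference at ZT18 differed from the mean of the diet differences at the other 5 hours was tested in the same fit. It passed for 4 genes (0.0258% of 15490), and 840 genes (5.42%) had an unadjusted p under 0.05. Cox8b exceeded the other hours by 6.36 ± 1.06 on the log2 scale, and at those hours its diet difference was between -1.88 and 1.07. Hspa1b, the inducible heat shock protein 70, had 9.56 and 17.1 CPM in CR against 1.76 and 1.79 CPM in AL at ZT18 (2.91 ± 0.77, adjusted p = 0.112). At the other hours its diet difference was between -3.49 and -0.37, and the ZT18 difference exceeded them by 5.10 ± 0.89. Other genes can share its reads, since 62.3% of its 50-base words occur in their transcripts.

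Hsd3b5 was less reduced by CR at ZT18 than at the other hours, where the differences were -8.12 to -5.60, and the test gave 4.70 ± 0.83. This rests on CR replicate 2: without that library the value was 1.68 (adjusted p = 0.908). Ppp1r3g, a glycogen-targeting subunit of protein phosphatase 1, ran the other way. It had 0.650 and 0.796 CPM in CR against 1.05 and 0.604 CPM in AL at ZT18. CR was above AL by 2.51 to 8.28 at the other hours, and the test gave -5.19 ± 0.90. At ZT22 neither AL library had counts of Ppp1r3g, and the CR libraries had 0.362 and 0.873 CPM. The difference at ZT22 thus has no firm size, and it enters the mean of the other hours. The adjusted p of all 4 genes was 0.0485 in edgeR's test. Without AL replicate 1, AL replicate 2 or CR replicate 2 no gene passed (924, 1274 and 807 at an unadjusted p under 0.05), and without CR replicate 1 there were 7 calls, 2 of them among these 4.

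**Figure D5:**
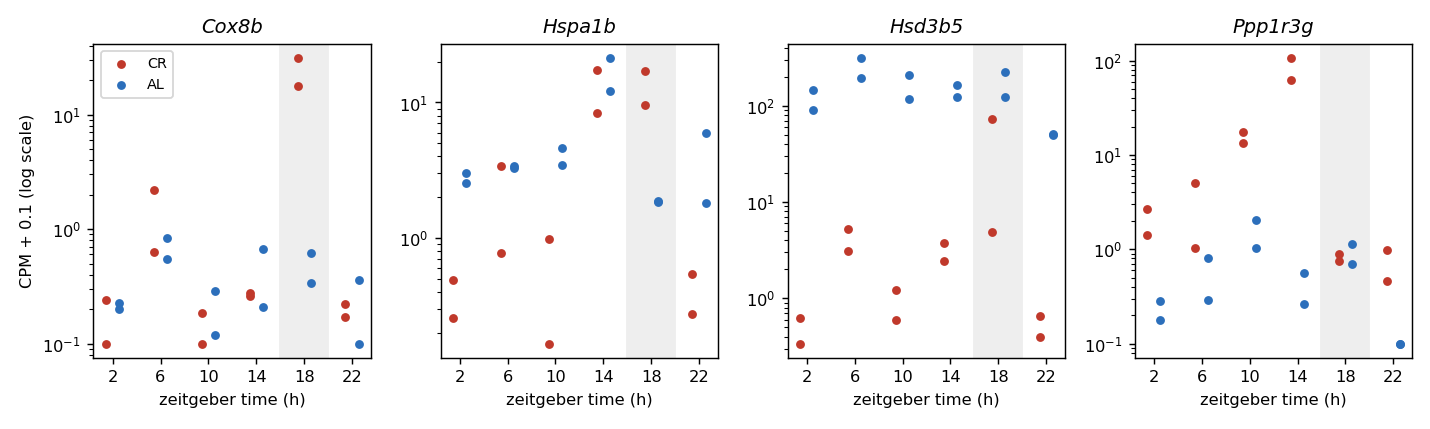
CPM plus 0.1 (log scale) of 4 genes in each of the 24 libraries by hour, with CR (red) left of AL (blue) and ZT18 shaded. Cox8b is high in both CR libraries of ZT18, the order of the diets for Hspa1b at ZT18 is opposite to most hours, Hsd3b5 has 1 CR library near AL, and Ppp1r3g has equal diets.

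For the muscle genes as a group this test says little, since 41 of the 64 had a group of libraries without counts at another hour. Their diet difference at such an hour has no firm size, and the test then has no usable SE. Over the 64 genes the fitted differences at ZT18 exceeded those of the other hours by a median of 4.34, which is thus not a firm size. Of the 64, 15 had an unadjusted p under 0.05 (beside 5.42% of all genes) and only Cox8b passed. With limma-trend 24 genes passed, 19 of them muscle genes. Among male-biased genes 14 of 24 had an unadjusted p under 0.05 (beside 5.42%). The list's median diet difference was -5.92 at ZT2, -2.12 at ZT6, -5.76 at ZT10, -4.75 at ZT14, -2.12 at ZT18 and -5.71 at ZT22. The values at ZT18 and ZT6 come from divided CR pairs. Relative to the AL mean of ZT18, CR replicates 1 and 2 stood at -4.51 and -1.26 at ZT18, and at -4.70 and -1.66 at ZT6.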

How the data were processed

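Read counts per gene were deposited by the authors as whole numbers, 1 file per library. Per the submitters' processing notes they used FastQC, HTSeq and DESeq2 with GRCm38.p5, and per the labels' protocols libraries were poly(A) selected without strand. The sources used here name neither tool versions nor an aligner. Counts for 52636 gene identifiers were read as deposited, 52489 with a symbol from GENCODE vM21. edgeR 4.0.16 in R 4.3.3 was run with TMM scaling, filterByExpr over the 12 groups (15490 genes) and 1 mean per group over all 24 libraries, because 2 libraries per group leave little to estimate spread from. An exact test of 2 against 2 libraries cannot go below p = 0.333. Contrasts were CR minus AL at ZT18, and this minus the mean of the other 5 hours, each adjusted over all genes by Benjamini-Hochberg at 0.05. Levels are CPM of the TMM-scaled totals. Replicate numbers were not used to pair the libraries in the main fit. The correlation of replicate differences between the diets was -0.05 at ZT18 and -0.05 to 0.20 at ZT2, ZT6, ZT10 and ZT14. Such a correlation cannot show whether libraries were handled in pairs. At ZT18 the ribosomal RNA share was higher in replicate 1 of both diets.

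The members, gene lists and tests were chosen with earlier results of these data known. Named genes are the 15 higher and 15 lower called genes (7 existed) of largest change whose geometric mean over the ZT18 libraries reached 10 CPM and whose symbol is a name, up to 4 called members per list, all clock genes, and those that differed most within a diet. Others, such as Fam84b, Cyp7a1 and the muscle genes, were named after their values were seen. A few genes covered by the rules are not reported here. Shared sequence is the percentage of a gene's 50-base words found in other genes' transcripts. Promoters are RefSeq windows. Procedures were tested on simulated counts. Alternatives were DESeq2 1.42.0, limma-trend (limma 3.58.1), other scalings and filters, a replicate block and leaving out each ZT18 library. 3 were added after the data were seen: bias-adjusted deviances, no muscle genes, and no CR replicate 1 of ZT6.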

Additional observations from a re-analysis of the deposited data

Results flagged for a closer look

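The diet difference at ZT18 differed from the mean of the other 5 hours for 4 genes. Cox8b was 6.36 above the other hours on the log2 scale, Hspa1b 5.10 above and Hsd3b5 4.70 above, and Ppp1r3g stood at -5.19. Each had an adjusted p of 0.0485 in edgeR's quasi-likelihood test. When each ZT18 library was left out in turn, the value was 5.92 to 7.08 for Cox8b, 4.62 to 5.46 for Hspa1b, 1.68 to 5.60 for Hsd3b5 and -5.56 to -4.79 for Ppp1r3g. The low end for Hsd3b5 came without CR replicate 2. For Ppp1r3g neither AL library of ZT22 had counts, so the diet difference at that hour has no firm size. Why these 4 genes differ was not tested.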

How the results depend on the processing

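Beside 87 calls between CR and AL at ZT18, 4 for the difference from other hours, and 11 female-biased, 3 male-biased and 27 muscle calls, the counts moved as follows. DESeq2 gave 236 calls, 26 for the difference and 7 male-biased. Limma-trend gave 137, 24, 5 male-biased and 45 muscle. Without a composition factor, which moved the median of all genes to 0.17, there were 70 calls, of them 66 higher and 4 lower, 2 for the difference and 1 male-biased. No filter gave 420, 120, 20 female-biased, 22 male-biased and 46 muscle, and a filter of 1 CPM in 12 libraries 33, 0 (524 at an unadjusted p under 0.05), 1 male-biased and 1 muscle. The replicate block gave 11 male-biased calls and 107 in all. The 4 ZT18 libraries alone gave 1 male-biased call and 89 in all, 86 of them higher. Lower calls depended on the fit, with 16 in the main fit and 3 with the 4 ZT18 libraries alone. They numbered 3 with the filter of 1 CPM in 12 libraries, 22 with limma-trend, 32 with the replicate block, 89 with DESeq2 and 215 with no filter. Bias-adjusted deviances gave 191 calls and 45 muscle, and removal of the muscle genes 43, 0 (829 at an unadjusted p under 0.05) and 1 male-biased. Leaving out 1 library (each of ZT18, or CR replicate 1 of ZT6) gave 1 to 129 calls, 0 to 9 for the difference, 0 to 15 female-biased, 0 to 17 male-biased and 0 to 32 muscle. More genes are tested in these fits, since a group of 1 lowers the filter. DESeq size factors and removal of ribosomal RNA features changed no count by over 1.5 times. Of 1585 values of 98 named genes under the alternatives, 1329 kept direction and side of the threshold, 215 no longer passed, 34 newly passed and 7 turned sign, none of these called: Ppp1r3g (0.16 without a composition factor, -0.52 to 0.26 with a library left out), and with a library left out Bhlhe40 (-0.041 to 0.46), Socs2 (-2.28 to 2.01), Tef (-0.15 to 0.74), Adipoq (-2.48 to 8.54) and Cfd (-1.39 to 5.58). The causes were not tested. Differences under 2-fold gave no call at this depth and replication.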
